A study of Mus musculus with 2 samples.

Results

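The genes described here are 10 that are known to be induced when the retina is injured: Edn2, Lif, Fgf2, Stat3, Socs3, Cebpd, Serpina3n, A2m, Timp1 and Lcn2. They were chosen by name, and each is represented by the non-control probes whose transcript accession is a RefSeq transcript of the gene. This gave 11 of the 28330 named probes and 10 of the 21367 named genes, on 29 spots of each array. Total RNA of mouse retinas dissected at postnatal day 12 was hybridised to 1-colour Agilent arrays, with 1 array for retina labelled Samd7 KO and 1 for retina labelled wild type. Samd7 encodes a sterile alpha motif protein of photoreceptors, and the comparison asks how its loss relates to the expression profile. Strain, sex, the part of Samd7 deleted and the number of animals behind each RNA sample are not in the labels. With 1 array a group there is no test, and each difference compares these arrays only.

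Photoreceptors under stress are known to make the secreted peptide endothelin 2 (Edn2). Müller glia, the main supporting cells of the retina, are known to make the cytokine leukemia inhibitory factor (Lif) after injury. Lif acts through the receptor subunit gp130 and the transcription factor Stat3 and is known to raise protective factors such as fibroblast growth factor 2 (Fgf2). In reactive gliosis, the response of glia to injury, Stat3 targets and secreted proteins such as Lcn2, Serpina3n and Timp1 are known to increase along with the glial filament gene Gfap.

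None of the injury genes measured on both arrays was 2-fold apart, and Edn2, Lif and Fgf2 were not well above background. Of the 10 members, 6 were above background on both arrays, 1 (A2m) on the wild-type-labelled array only, and 3 on neither. None of the 7 with a difference was at least 2-fold higher on the KO-labelled array, where 1.58% of all 15934 named genes above background were. Only A2m was at least 2-fold lower, as a bound, against 1.37% of all genes. The median difference of the 7 was -0.01 on the log2 scale, against -0.02 over all genes. Lcn2 was the member measured on both arrays that lay farthest from 0, at 1.497-fold lower on the KO-labelled array.

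A level is the log2 of a probe's processed signal relative to the signal that 75% of the array's non-control spots stay under, so a level of 0 stands for 554 on the KO-labelled and 574 on the wild-type-labelled array. Above background means that the scanner software called most of a probe's spots well above background, and the dimmest such probe lay at -5.56 on the KO-labelled and -5.39 on the wild-type-labelled array. Such spots made up 60.9% and 60.3% of the non-control spots on the KO-labelled and wild-type-labelled arrays, and no spot was saturated. Differences are KO-labelled minus wild-type-labelled. The technical spread was the SD of the difference among spots of 1 probe on these same arrays. It holds no variation between dissections, RNA samples, labellings or hybridisations, so a difference beyond it can still come from those. The spread grew as signals became dimmer, with 0.05 at levels of at least 0 and 0.09 at levels between -2 and 0. Between -4 and -2 the spread was 0.19, and under -4 it was 0.52. Scanner errors, and the scanner's error estimates of a difference, are values that the scanner software assigned to each signal. For the bright spots of the members they were nearly a fixed share of the signal, and they are not a spread measured here. The Samd7 probe itself read 6.47 on the KO-labelled and 4.68 on the wild-type-labelled array, 3.44-fold higher where the label says knockout. Whether that probe lies within the deleted part is not known here, so every direction rests on the labels. All 10 photoreceptor markers examined, among them Crx and Nrl, were above background on both arrays.

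**Figure D1:**
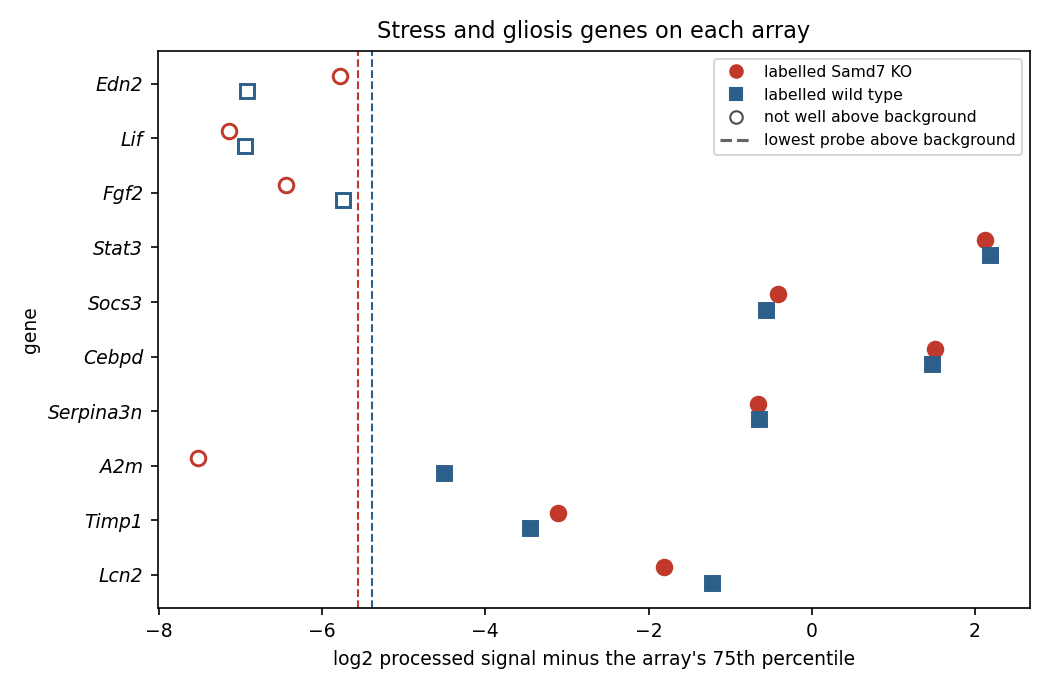
Level of each gene (x axis, log2 signal relative to that array's 75th percentile) on the array labelled Samd7 KO (red circles) and on that labelled wild type (blue squares). Open symbols were not well above background, and dashed lines mark the dimmest probe above background on each array. The 3 ligands Edn2, Lif and Fgf2 sit left of the lines on both arrays, and A2m does so on the KO-labelled array alone. Levels of different genes come from different probes and are not comparable with each other.

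The ligands among the members were not well above background on either array. Edn2, the endothelin of stressed photoreceptors, had a level of -5.78 on the KO-labelled array and -6.92 on the wild-type-labelled array. Its signal was 10.1 with a scanner error of 2.67 on the KO-labelled array, against 4.74 with an error of 2.89 on the wild-type-labelled array. Both readings passed the software's weaker test for a positive signal but not the test for being well above background, so no fold is given. Lif had a level of -7.14 on the KO-labelled array and -6.94 on the wild-type-labelled array, and its signal was 3.92 (scanner error 3.18) on the KO-labelled and 4.68 (scanner error 3.70) on the wild-type-labelled array. The Lif probe represents 1 RefSeq transcript, and other forms were not measured.

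Fgf2, a survival factor for photoreceptors, was printed on 10 spots of each array, and none of them was well above background. On the KO-labelled array the 9 usable spots ran from -7.52 to -5.83 with a median of -6.40, and 1 spot was set aside as an outlier. On the wild-type-labelled array the 10 spots ran from -6.33 to -5.33 with a median of -5.63. The ranges overlapped, and the KO-labelled spot was the dimmer one at 8 of 9 shared positions. A positive signal by the weaker test was recorded at 8 of 10 spots on the KO-labelled and 10 of 10 on the wild-type-labelled array. Spots of 1 array share 1 RNA sample and are not replicates, and no fold is given for readings not well above background. Such readings were common, with 5433 of the 21367 named genes (25.4%) well above background on neither array.

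Stat3, the transcription factor that carries the Lif signal to the nucleus, was nearly level. Its main probe was also printed 10 times, so its reading rests on more spots than that of any other member above background. The spots ran from 2.05 to 2.19 (median 2.12, SD 0.05) on the KO-labelled array, and from 2.13 to 2.23 (median 2.19, SD 0.04) on the wild-type-labelled array. The ranges overlapped, although the KO-labelled spot was lower at 9 of 10 positions. The mean difference was -0.07 with an SD of 0.04 over positions, which is 1.05-fold lower and compares with the all-gene median of -0.02. The other Stat3 probe, for another transcript, had a level of -3.15 on the KO-labelled and -3.09 on the wild-type-labelled array, a difference of -0.06. Among genes of the same signal range as the main probe, 49.98% lay at least as far from 0.

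**Figure D2:**
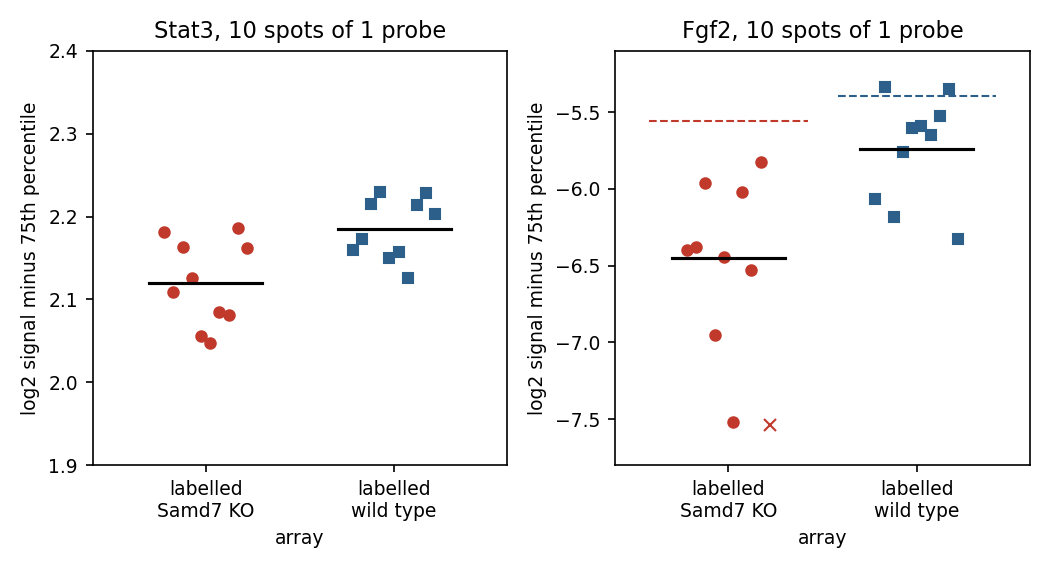
Level (y axis, log2 signal minus the array's 75th percentile) of each of the 10 spots of the Stat3 probe (left) and of the Fgf2 probe (right) on the KO-labelled (red circles) and wild-type-labelled (blue squares) array. Black bars are means over usable spots, the cross is the spot set aside as an outlier, and dashed lines in the right panel mark the dimmest probe above background. The y axes do not start at 0. The Stat3 means differ by -0.07, and the 10 Fgf2 spots of each array were all called not well above background.

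Socs3, the inhibitor that gp130 signalling induces to switch itself off, had a level of -0.42 on the KO-labelled array and -0.57 on the wild-type-labelled array. The difference of 0.15 is 1.11-fold higher on the KO-labelled array, more than the technical spread of 0.09. It is less than the 0.20 from the errors that the scanner software assigned. It came to 0.001 after another background correction. Of the genes in its signal range, 33.1% lay at least as far from 0. Cebpd, a transcription factor of the acute phase response that Stat3 is known to induce, had levels of 1.51 on the KO-labelled and 1.47 on the wild-type-labelled array. Its difference of 0.03 was smaller than the technical spread of 0.05. Stat3, Socs3 and Cebpd were all above background on both arrays, and none was more than 1.11-fold apart.

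Promoters of 8 members were matched by symbol in the RefSeq table of build GRCm38.p6, and the 250 bases before each start were searched for motifs of the factors among the members. The STAT motif TTCNNNGAA, which reads the same on either strand, was present in 1 of the 8, that of Socs3, and in 7.02% of all 32851 windows. The C/EBP motif TTGCNNAA, searched on both strands, was present in 1 of the 8, that of Lcn2, and in 9.56% of all windows. A match is a description of letters and not a shown binding site. The stretches printed below hold the only matches among the 8 promoters, with the motif in capitals. It begins 154 and 216 bases before the listed start of Socs3 and Lcn2 in that order. The first lies at chr11:117969501-117969530 and the second at chr2:32387890-32387989, both on the minus strand, and the RefSeq gene Socs3 also has models that begin further upstream.
Socs3: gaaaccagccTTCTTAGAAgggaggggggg
Lcn2: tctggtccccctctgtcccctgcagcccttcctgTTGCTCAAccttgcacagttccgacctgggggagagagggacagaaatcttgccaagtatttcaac

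Lcn2, the iron-siderophore carrier lipocalin 2, was lower on the KO-labelled array. Its level was -1.81 there and -1.23 on the wild-type-labelled array, with signals of 158 (scanner error 16.1) on the KO-labelled and 246 (scanner error 24.8) on the wild-type-labelled array. The difference of -0.58, or 1.497-fold lower, exceeds the technical spread of 0.09 and the 0.21 from the scanner's error estimates. Of the 3095 genes in its signal range, 3.52% lay at least as far from 0, and 1.92% of all genes measured on both arrays had a lower difference. Lcn2 has 1 probe on 1 spot, and the spread between animals, RNA samples and hybridisations is unknown. In whole retina, fewer cells of a type and less RNA per cell cannot be told apart. Microglia and leukocyte markers, which could bear on Lcn2, were below 0 in 9 of 12 cases, with a median of -0.11. Of all genes measured on both arrays, 52.9% lay below -0.015 and 68.1% below 0.031, so the share below 0 lies between these. The markers had summed levels of 24.8 on the KO-labelled and 23.9 on the wild-type-labelled array in units of the 75th percentile. Without Itgam, whose probes gave 0.33, 0.32 and -0.58, the summed levels were 13.3 on the KO-labelled and 14.8 on the wild-type-labelled array. The part of these cells in the result was not tested.

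The protease inhibitors did not move together. Serpina3n, a serine protease inhibitor and a standard marker of reactive astrocytes, had a level of -0.66 on the KO-labelled array and -0.65 on the wild-type-labelled array. Its difference of -0.01 changed sign to 0.02 with median centring and to 0.01 with loess, all within the technical spread of 0.09. Timp1, an inhibitor of matrix metalloproteinases, had a level of -3.11 on the KO-labelled array and -3.46 on the wild-type-labelled array. The difference of 0.35, 1.27-fold higher on the KO-labelled array, is larger than the technical spread of 0.19 and the 0.24 from the scanner's error estimates, and 17.9% of genes in its signal range lay at least as far from 0. Serpina3n belongs to a cluster of close relatives, so signal shared with them cannot be told apart from its own.

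A2m encodes alpha-2-macroglobulin, a secreted trap for proteases. Its signal was 3.01 (scanner error 3.03) on the KO-labelled array, which is not well above background, and 25.2 (scanner error 4.24) on the wild-type-labelled array, which is. The levels were -7.53 on the KO-labelled and -4.51 on the wild-type-labelled array, and against the dimmest probe above background A2m was at least 2.07-fold lower on the KO-labelled array. The bound takes the reading of 1 wild-type-labelled spot as exact, and the technical spread at levels under -4 was 0.52. That bound fell short of 2-fold after quantile normalization (-0.98), loess (-0.95) and normexp background correction (-0.32). Such calls were common among dim genes, where 8.12% of 1687 genes with a mean level below -4 were at least 2-fold lower. The related gene Pzp was above background on neither array.

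**Figure D3:**
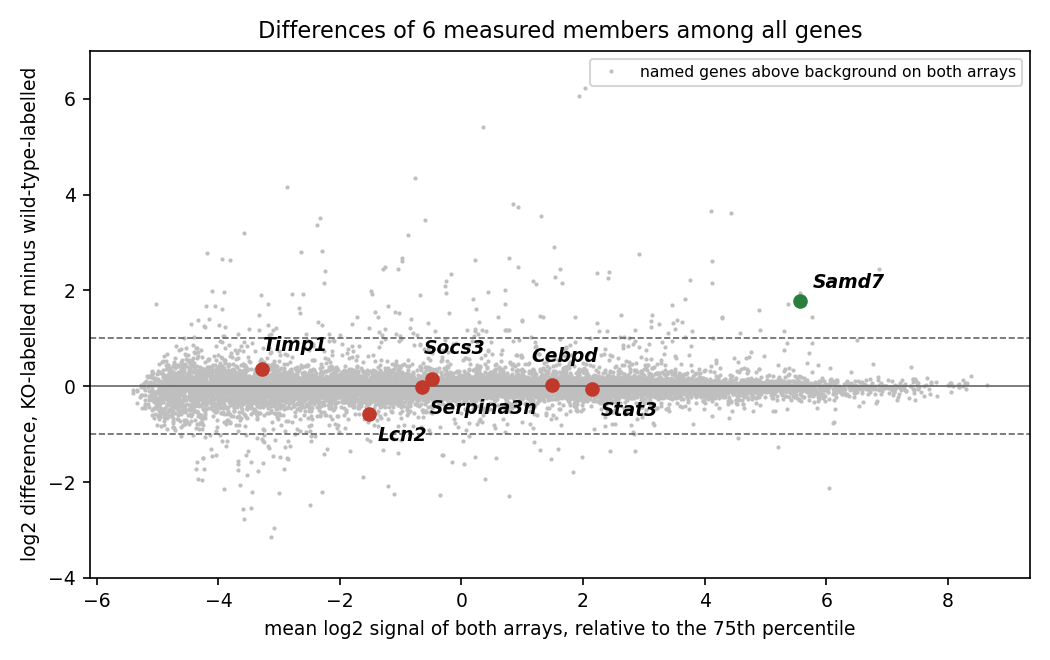
Difference (y axis, log2, KO-labelled minus wild-type-labelled) against mean level of both arrays (x axis, log2 relative to the 75th percentile) for named genes above background on both arrays (grey), with the 6 measured members in red and Samd7 in green. Dashed lines mark 2-fold. The members lie between -0.58 (Lcn2) and 0.35 (Timp1), inside the dashed lines, whereas Samd7 lies at 1.78.

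Genes that act with the members were taken from 11 lists of signalling partners, relatives and reactive-glia genes. Over 132 genes, each counted once, 113 were above background, of which 1 (0.885%) was at least 2-fold higher and 0 at least 2-fold lower on the KO-labelled array, against 1.58% and 1.37% of all genes, with a median difference of -0.05. The gene was Fgfr3, a fibroblast growth factor receptor, with a level of -1.46 on the KO-labelled and -2.53 on the wild-type-labelled array. That difference of 1.07 was 0.40 in its other, dimmer probe and 0.70 under normexp background correction. Normexp used both an offset and median signals, and the part of each in such changes was not tested. Normexp also brought other dim genes of the lists closer to 0, with Il6ra at -0.47, Fgf5 at 0.39, Ptx3 at -0.36, Ntf3 at -0.42, Mlkl at -0.16, Casp1 at -0.04 and Aspg at 0.13.

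Of 21 genes of gp130 cytokines, receptors and JAK-STAT signalling, 19 were above background with a median of -0.05 and none was 2-fold apart. The receptor subunits that Lif needs were above background on both arrays. The gp130 gene Il6st was at -0.05 and Lifr at -0.07 in its brightest probe, but another Lifr probe gave -0.69 and the mean over its probes was -0.27. The largest differences in the list were those of the receptors Cntfr, for ciliary neurotrophic factor, at 0.75, and Il6ra, for interleukin 6, at -0.87. Il6 and Osm, cytokines of the same family as Lif, were above background on neither array. Of 7 genes of the endothelin system, 6 were above background with a median of -0.04. The endothelin receptors Ednra (-0.03) and Ednrb (-0.06) were close to 0 and changed sign over the normalizations, whereas the endothelin-converting enzyme Ece1 was at 0.98, just under 2-fold. Ece1 passed 2-fold with median centring (1.01) and loess (1.0002), which gave 2 related genes at least 2-fold higher, and was at 0.72 under normexp, which gave 0.

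All 17 genes of FGF signalling were above background, with a median of -0.05. Besides Fgfr3, the ligand Fgf5 was at 0.69 and the feedback inhibitor Spry2 at -0.43. Fgfr1, the widely expressed receptor for Fgf2, was at -0.02 and changed sign over the normalizations. Of 15 protease inhibitor and protease genes on the arrays, 11 were above background with a median of -0.04, from Serpina3f, a relative of Serpina3n that was at least 1.76-fold lower by a bound (-0.82), to the complement C1 inhibitor Serping1 (0.88, and 0.9997 in its other probe). Timp4 was at 0.83, but at 0.13 under normexp. The C/EBP relatives had a median of 0.11 over 5 of 6 genes, with Cebpb, a partner of Cebpd in the acute phase response, at 0.46. Cebpa was at -0.66, taken to its own KO-labelled reading. That reading was not well above background, so the value is not a minimum. Acute phase genes had a median of -0.04 over 8 of 11, with Saa2 at -0.68 (-0.10 under normexp). Haptoglobin, Hp, was at -0.54, taken to its own KO-labelled reading as for Cebpa. The lipocalin receptor gene Slc22a17 was at 0.08.

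The medians of the wider gliosis lists lay between -0.16 and 0.06, with single genes farther from 0. Pan-reactive astrocyte genes had a median of -0.02 over 9 of 11, from Osmr, the oncostatin M receptor, at -0.17 to Aspg at 0.33. Gfap had a level of -1.02 on the KO-labelled array and -0.96 on the wild-type-labelled array, a difference of -0.05 in its brightest probe. Its other probes gave 0.16 and 0.46, so no direction is given for it. Genes named for a neurotoxic type of reactive astrocyte had a median of 0.06 over 10 of 11, with Serping1 and the class I histocompatibility gene H2-D1 (0.31) the highest. Those named for a protective type had a median of -0.16 over 9 of 12, with 8 below 0, the lowest being the pentraxin Ptx3 at -0.67. For comparison, 52.9% of all genes measured on both arrays lay below -0.015 and 68.1% below 0.031, with the share below 0 between these. Survival factors had a median of -0.06 over 10 of 10, from Ntf3 at -0.81 to Nrtn at 0.29. Cell death genes had a median of -0.10 over 13 of 15, with Mlkl and Casp1 both at -0.47. Pmaip1 was the highest by brightest probe, at 0.19. The probes of Bcl2l11 pointed in opposite directions, and its brighter probe gave -0.37. Its dimmer probe read -3.38 on the KO-labelled array and -7.36, not well above background, on the wild-type-labelled array. Set against the dimmest probe above background there, that difference came to 2.01 or more.

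**Figure D4:**
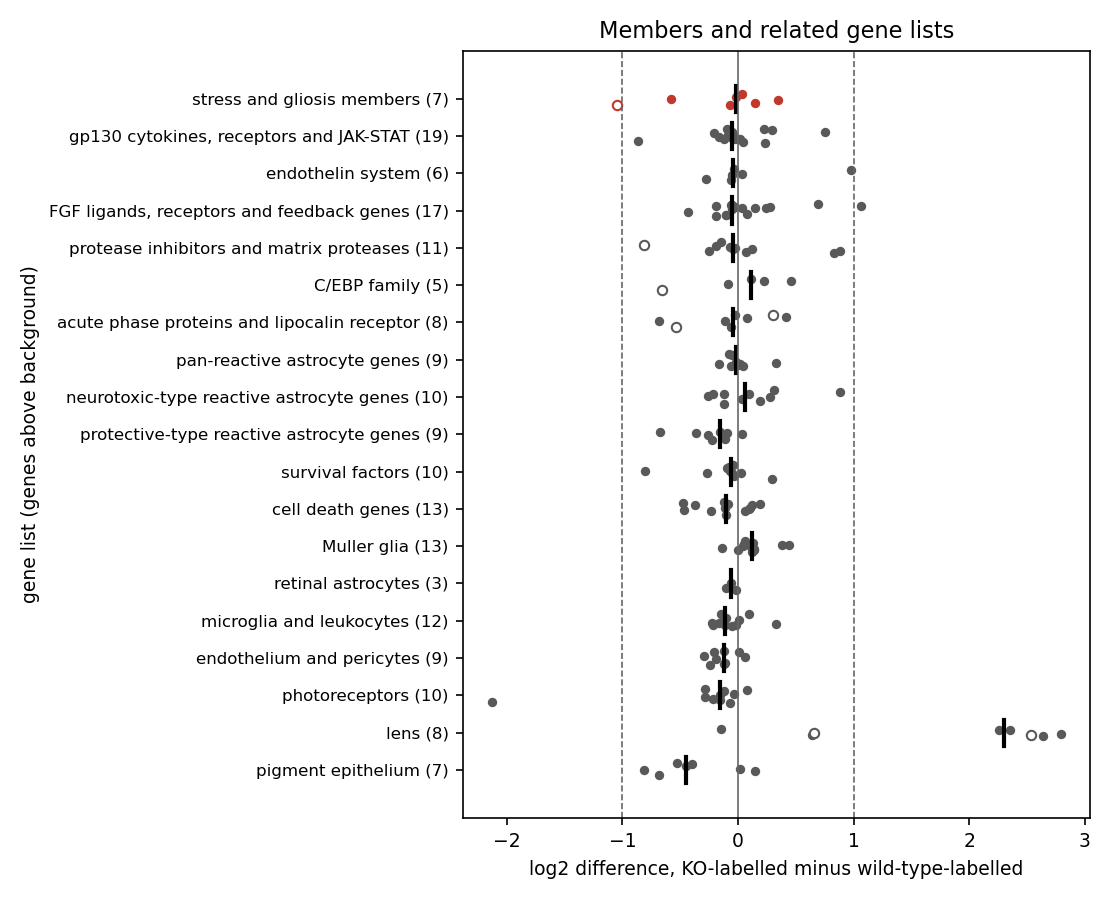
Difference (x axis, log2, KO-labelled minus wild-type-labelled) of the genes above background in each list (rows, with their number), the members in red at the top. Filled points were above background on both arrays, open points are bounds, black bars are medians and dashed lines mark 2-fold. The members and the 11 related lists centre between -0.16 and 0.11, and lens genes stand apart at 2.30.

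Markers of photoreceptors, the known source of Edn2, were below 0 in 9 of 10 cases with a median of -0.16, and the rod transducin Gnat1 was at -2.13. Over all genes measured on both arrays, 52.9% lay below -0.015 and 68.1% below 0.031, so the share below 0 lies between these. Müller glia markers were above 0 in 11 of 13 cases with a median of 0.12 and summed levels of 311 on the KO-labelled and 282 on the wild-type-labelled array. Such sums weight genes by the brightness of their probes, and without Apoe (0.44) they were 244 on the KO-labelled and 233 on the wild-type-labelled array. Hes1 was at 0.38. Retinal astrocyte markers had a median of -0.06 over 3 of 4, with Pax2 above background on neither array. Endothelial and pericyte markers had a median of -0.12 over 9 of 9. The medians of genes listed for the lens and the pigment epithelium lay farther from 0. Lens genes had a median of 2.30 over 8 genes (1.28 under normexp), with 5 at least 2-fold higher. Their summed levels were 26.4 on the KO-labelled and 5.70 on the wild-type-labelled array. The lens genes did not all move alike, with Bfsp1 at 0.64, Bfsp2 at -0.15 and Lim2 at 0.66 by a bound. Pigment epithelium genes had a median of -0.45 over 7, with summed levels of 11.7 on the KO-labelled and 17.0 on the wild-type-labelled array. They ran from Pmel at -0.81 to Best1 at 0.15, with Mitf at 0.02. What these cells and tissues contribute to Timp1, Lcn2 or A2m was not tested.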

How the data were processed

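The files deposited for each array hold spot intensity on a linear scale, background-subtracted by Agilent Feature Extraction 11.5.1.1 under protocol GE1_1105_Oct12, per the file headers. The array design is on build mm9. The deposited value table holds the same intensity values times a constant per array (median log2 ratio 1.37 for the KO-labelled and 1.31 for the wild-type-labelled array). What set the constant is unknown here, and the table served as an alternative.

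Log2 processed signals were centred on each array's 75th percentile, outlier spots (163 on the KO-labelled, 119 on the wild-type-labelled array) were left out, and spots of 1 probe were averaged. Accessions were named through a RefSeq table of GRCm38.p6. Each gene was read from its brightest probe. A gene above background on 1 array only got a bound against the dimmest probe above background on the other. Where its own signal there was higher than that probe, the difference to that signal was used, which is not a minimum. Technical spread came from 432 probes with repeated spots. With 1 array a group no p-value exists, and the number of arrays limits the precision. The counting step was tested on simulated data.

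Members, lists and the 2-fold threshold were chosen with earlier results of these data known. Named genes are all members, Samd7, receptors and partners of members, and list genes that are 2-fold apart or, among those above background on both arrays, the 2 highest and 2 lowest. Serpina3f, Cebpa and Hp, which were above background on the wild-type-labelled array only, were named after their values were seen. So was Bcl2l11, which has a bound in its dimmer probe. With 2 arrays no genes could be named for a like pattern. Alternatives used limma 3.58.1 in R 4.3.3 for normexp with offset 50, quantile and loess normalization.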

Additional observations from a re-analysis of the deposited data

How the results depend on the processing

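No member was at least 2-fold higher under any normalization. With no filter on dim probes the count was 1, which was Edn2 at 1.14 from readings not well above background. The count of members at least 2-fold lower, 1 by the bound for A2m, was 0 under normexp, quantile normalization, loess and with genes above background on both arrays only; in the last case bounds drop out by construction, and otherwise the cause was not tested. The members' median stayed between -0.07 and 0.02. Of 49 recomputed member differences, 3 moved by more than the technical spread, all under normexp (Socs3 to 0.001, Lcn2 to -0.41 and A2m to -0.32). Serpina3n changed sign under some normalizations. The bound of A2m, the only called member, cannot change sign by construction. Over all genes, against 251 higher and 218 lower, normexp gave 120 and 45, genes above background on both arrays 164 and 94, no filter 579 and 671, and a 1.5-fold threshold 471 and 510. Among the 113 related genes, the 1 that was at least 2-fold higher became 2 with median centring and loess and 0 under normexp, and with the mean over probes it was Bcl2l11 in place of Fgfr3; with no filter there were 2 higher and 2 lower. These counts were added after seeing the data. Of 162 recomputed list medians, 5 moved by more than 0.07, the median technical spread. Normexp used median signals, and mean signals were not used here. Dim signal limits what can be said of Edn2, Lif, Fgf2 and A2m. No paired analysis was possible because the arrays are single, 1 for each genotype.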

Other observations

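Probes of 1 gene disagreed for some receptors and glial genes near the members, and for the cell death gene Bcl2l11, described above. Lifr, the Lif receptor, gave -0.07 and -0.06 in 2 probes, and the third, at -0.69, had a level of -1.32 on the KO-labelled array and -0.64 on the wild-type-labelled array. Ednrb gave -0.06 in its brighter probe and -0.23 in the other. Which transcripts these probes read was not examined.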
